A study of Mus musculus with 8 samples.

Results

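Nuclear mRNA export was examined through 9 genes, selected by name from the 54532 genes of the count table: *Nxt1*, *Nxt2* and *Nxf1* for the export receptor, *Alyref*, *Ddx39b*, *Thoc1*, *Thoc2* and *Thoc5* for the TREX complex, and *Xpo1* for an exportin. Total RNA of whole mouse retina was sequenced from 4 *Mettl3*-CKO samples, which carry Six3-Cre and 2 floxed *Mettl3* alleles, and from 4 littermate control samples, whose genotype is not specified further in the labels. The labels give the age as postnatal day 7. *Mettl3* encodes the catalytic subunit of the enzyme that writes m6A, a methyl mark on mRNA, and Six3-Cre acts in retinal progenitor cells, so the rest of the tissue that does not descend from them keeps the gene. The study describes efficient loss of the protein in the central retina, while these libraries were made from the retina as a whole.

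An mRNA leaves the nucleus bound to a heterodimer of NXF1, the large subunit that contacts the nuclear pore, and NXT1, a small subunit that folds against it. The heterodimer is handed its cargo by TREX, in which the helicase DDX39B and the adaptor ALYREF join the THO complex. XPO1 instead carries proteins and selected RNAs out with the GTPase RAN. m6A is found mostly on DRACH motifs, of which GGACT is a common form, and lies mostly in long internal exons and around stop codons.

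*Nxt1* was the member that changed most, with 2.88-fold more RNA in *Mettl3*-CKO retinas than in controls, while its partner *Nxf1* and its paralog *Nxt2* did not pass the test. *Ddx39b* was 1.24-fold higher and was the other member called. Thus 2 of the 9 members were called higher and 0 lower at an adjusted p under 0.05 (quasi-likelihood test of edgeR, Benjamini-Hochberg adjustment over 17998 genes), against 6.49% of all tested genes called higher and 4.05% called lower. DESeq2 and limma voom also called 2 members higher and 0 lower, and 1 member, *Thoc5*, was lower at an unadjusted p under 0.05 in edgeR. The median log2 fold change of the members was 0.04, beside -0.01 over all tested genes. All 9 members passed the filter on low counts. *Nxt1* had been taken forward by the study as one of 8 m6A-tagged genes with raised levels in mutant single-cell clusters, so its direction here is not independent of that choice. For these 8 genes the study placed m6A tags near the stop codon and measured less m6A on the transcripts in *Mettl3*-CKO retinas. In younger retinas it found longer transcript half-lives for some of the 8, not for all.

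The ends of the coding sequences, a region where m6A is often found, are shown for the 2 small-subunit paralogs and for *Alyref2* and *Nup62*, the other export genes whose coding sequence lies within 1 exon. Each is the last 150 bases of the coding sequence, stop codon included, read 5′ to 3′ from GENCODE vM21 transcripts on GRCm38, with GGACT in capitals. *Nxt1* ends at chr2:148675614-148675763, *Nxt2* at chrX:142237678-142237827, *Alyref2* at chr1:171504164-171504313 and *Nup62* at chr7:44829994-44830143, all on the plus strand.
Nxt1: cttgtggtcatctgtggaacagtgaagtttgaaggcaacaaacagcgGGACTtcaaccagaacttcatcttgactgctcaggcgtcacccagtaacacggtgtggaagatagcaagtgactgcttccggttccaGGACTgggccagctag
Nxt2: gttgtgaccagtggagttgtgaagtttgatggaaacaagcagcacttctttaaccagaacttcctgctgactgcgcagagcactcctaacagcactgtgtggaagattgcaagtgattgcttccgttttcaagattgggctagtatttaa
Alyref2: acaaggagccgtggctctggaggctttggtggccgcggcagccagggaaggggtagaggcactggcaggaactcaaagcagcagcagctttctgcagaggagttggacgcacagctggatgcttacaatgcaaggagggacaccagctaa
Nup62: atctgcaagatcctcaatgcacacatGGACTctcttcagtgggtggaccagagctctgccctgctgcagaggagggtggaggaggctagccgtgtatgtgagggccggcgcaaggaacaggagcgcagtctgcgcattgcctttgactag
The *Nxt1* window held 2 GGACT matches, *Nup62* held 1, and *Nxt2* and *Alyref2* held 0 in these letters. Of 14262 tested protein-coding genes with a coding sequence of this length or more, 17.8% held at least 1 match in the same window and 1.81% at least 2. The coding sequences of *Nxt1* and *Nxt2* were 73.8% identical over 423 aligned bases. Neither of the 2 GGACT matches of *Nxt1* stood opposite GGACT in *Nxt2*.

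Total counts ranged from 16227095 to 20281517 per library, and the mitochondrial share from 1.69% to 2.38%. *Mettl3* itself differed by -0.38 on the log2 scale (standard error, SE, 0.12, adjusted p = 0.0602, edgeR's quasi-likelihood test), was called lower by DESeq2 (adjusted p = 0.032) and limma voom (adjusted p = 0.0139), and *Mettl3*-CKO replicate 2, at 29.6 CPM, lay inside the control range, although reads from exons outside the deleted part count too. Rod markers were present in every library, with summed levels of 1273 to 2346 CPM in *Mettl3*-CKO and 2493 to 3695 CPM in control samples. Control replicate 4 stood apart in lens markers, with a sum of 2598 CPM against 4.35 to 52.9 CPM in the other controls. Nothing in the labels says that samples came from separate animals, so the p-values measure only the spread between these libraries. In whole tissue, fewer cells of a type and less RNA per cell cannot be told apart.

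*Nxt1*, the small subunit of the export receptor, lies on chromosome 2 of GRCm38 from 148672601 to 148676027. It measured 89.0, 51.7, 69.4 and 55.2 CPM in the *Mettl3*-CKO libraries and 24.5, 22.3, 22.6 and 22.7 CPM in the control libraries, each in replicate order, which is kept for all values given this way (CPM, TMM-scaled counts relative to library size). Mean CPM was 66.3 ± 17.0 in *Mettl3*-CKO and 23.0 ± 1.01 in control retinas (SD, n = 4 each). The lowest *Mettl3*-CKO sample was above the highest control, and the groups did not overlap. The *Mettl3*-CKO samples also varied more among themselves, with a coefficient of variation of 25.6% against 4.38% in controls. The log2 fold change was 1.53 (SE 0.15, adjusted p = 0.000227, edgeR's quasi-likelihood test), and the 95% interval of the fold was 2.30 to 3.61.

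**Figure D1:**
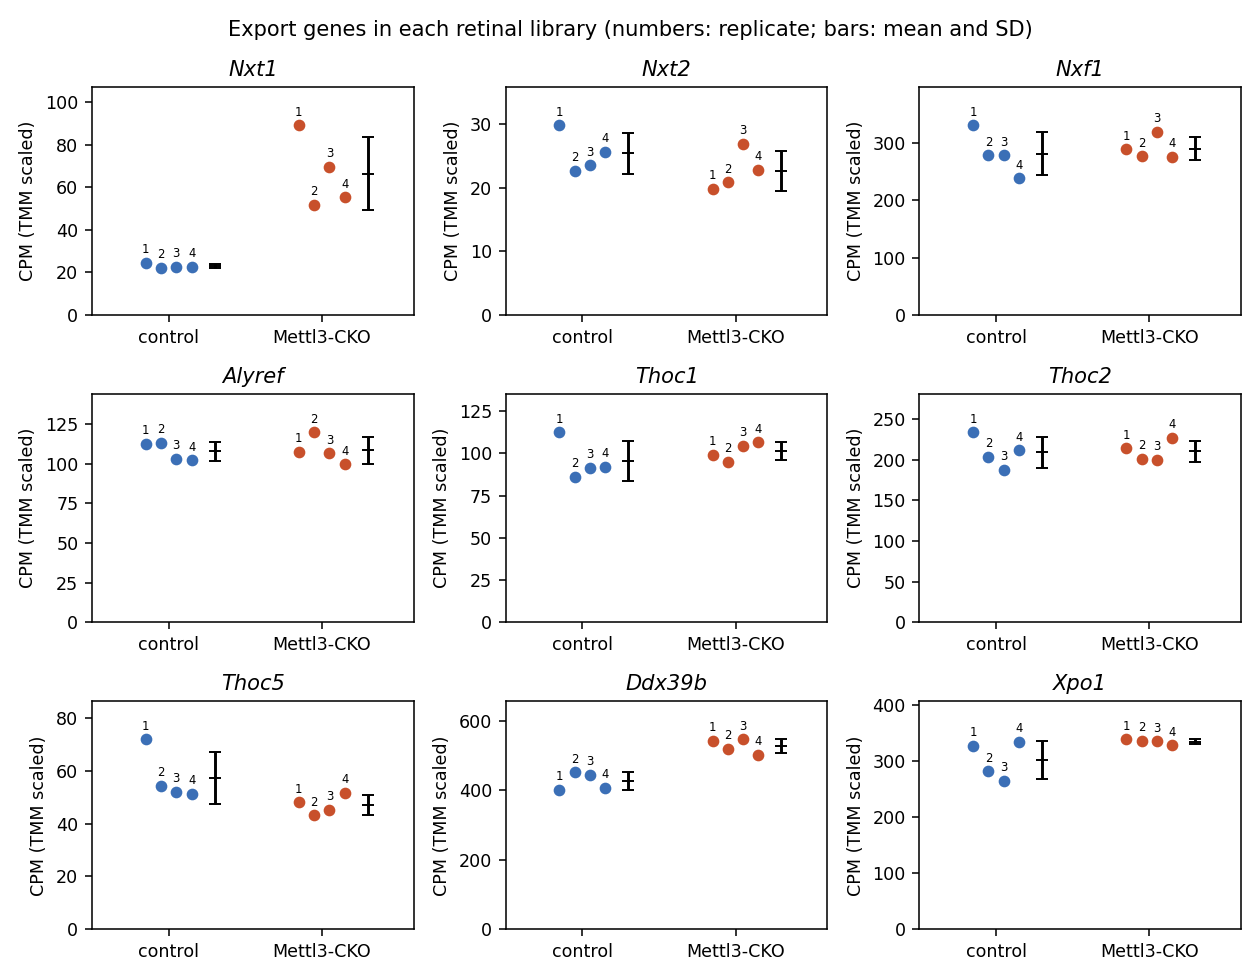
Levels of the 9 export genes in CPM (TMM scaled) in each of the 4 control (blue) and 4 Mettl3-CKO (red) libraries, with the replicate number above each point and bars for mean and SD. The groups stand clear of each other for Nxt1 and Ddx39b, and overlap for the other 7 genes.

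Among all 17998 genes tested, 87 had a larger log2 fold change than *Nxt1*, 83 of them called higher. Of the 612 genes called higher with a control mean of at least 20 CPM, 3 had a larger one. That cutoff was not planned and lies just below the control mean of *Nxt1*, 23.0 CPM, so the count of 3 depends on it. *Nxt1* was called whichever 1 of the 8 samples was left out, with log2 fold changes of 1.36 to 1.63, and in the 8 other settings, with 1.5 to 1.56.

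Dividing cell markers also moved between the groups. Of 12 markers, 4 were called higher (*Mki67*, *Birc5*, *Mcm2* and *Mcm5*) and 0 lower. All 12 had positive log2 fold changes, from 0.18 to 0.98 with a median of 0.35, and none was at 0 counts in all samples. Summed over the list, they reached 2785, 2710, 2545 and 2070 CPM in the *Mettl3*-CKO libraries and 1576 to 1977 CPM in controls. Replicate 1 was highest in both this sum and *Nxt1*, while replicate 2 was second in the sum and lowest of its group in *Nxt1*. Other marker lists moved as well. Lower calls were made for 5 of 7 rod markers (median log2 fold change -0.81, sums given above). Of 6 tested endothelial markers, 5 were called lower (median -1.32), and the other had a log2 fold change of 0.02. The endothelial sums overlapped, at 535 to 629 CPM against 540.5 to 646 CPM in controls, and do not show the fall of the called markers. Erythrocyte markers had 2 of 3 tested called lower (sums of 4.29 to 7.18 CPM against 13.9 to 26.3 CPM). Pigment epithelium markers had 2 of 4 tested called lower (sums of 47.2 to 64.6 CPM against 67.6 to 91.6 CPM). Lower calls were also made for 1 of 5 tested cone markers, 1 of 4 tested bipolar markers and 1 of 5 amacrine markers. The 3 of 5 tested lens markers called lower are a different case, since 0 of the 5 had groups that did not overlap. Their sum was 2598 CPM in control replicate 4, 4.35 to 52.9 CPM in the other controls and 5.04 to 15.4 CPM in *Mettl3*-CKO samples. Of 5 tested Müller glia markers, *Glul* was called higher and *Rlbp1* lower. Among 5 ganglion cell markers *Pou4f1* was called higher, and 0 of 6 microglia markers were called. The part of these cell types in the *Nxt1* difference was not tested.

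*Nxt2*, which encodes the alternative small subunit, measured 19.8, 20.8, 26.9 and 22.8 CPM in the *Mettl3*-CKO libraries and 29.8, 22.7, 23.5 and 25.6 CPM in the control libraries. The groups overlapped, and the log2 fold change was -0.17 (SE 0.12, adjusted p = 0.439, edgeR's quasi-likelihood test), with a 95% interval from -0.44 to 0.10. A rise of the size seen for *Nxt1* lies outside that interval.

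*Nxf1*, which encodes the large subunit that binds the pore and the RNA, measured 288, 276, 319 and 275 CPM in the *Mettl3*-CKO libraries and 330.1, 278, 278 and 238 CPM in the control libraries. The control range enclosed all *Mettl3*-CKO samples. The log2 fold change was 0.04 (SE 0.10, adjusted p = 0.848, edgeR's quasi-likelihood test), with a 95% interval from -0.18 to 0.26.

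The balance of RNA levels within the receptor was compared as the ratio of FPKM (CPM per kilobase of the deposited gene length) in the same library. The *Nxt1* to *Nxf1* ratio measured 1.66, 1.0, 1.17 and 1.08 in the *Mettl3*-CKO libraries and 0.398, 0.430, 0.435 and 0.512 in the control libraries. All *Mettl3*-CKO ratios were above all control ratios. The level of the ratio depends on the length used, since the deposited length of *Nxf1* is 5980 bases and its longest-coding transcript has 2326 bases, while *Nxt1* has 1116 bases by both. With transcript lengths the mean ratios were 0.477 in *Mettl3*-CKO and 0.173 in control retinas, so *Nxt1* stayed below *Nxf1* in every library, whereas the log2 difference between groups does not change with length. The mean ratios were 1.23 ± 0.294 and 0.444 ± 0.0486 (SD, n = 4 each), and the log2 difference of 1.44 had p = 0.0286 in a two-sided exact permutation test, the smallest that 4 samples against 4 allow (adjusted p = 0.0357 over the 5 ratios tested). The *Nxt1* to *Nxt2* ratio had means of 8.53 ± 2.85 and 2.60 ± 0.209, a log2 difference of 1.67 with the same exact permutation p of 0.0286. Both ratios have *Nxt1* as numerator, whose groups did not overlap, over a gene that changed little. They therefore follow the *Nxt1* difference and are not separate support for it. *Nxt1* made up 72.1% of the summed FPKM of the small subunits in controls and 88.9% in *Mettl3*-CKO retinas, or 67.4% and 86.5% with transcript lengths.

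**Figure D2:**
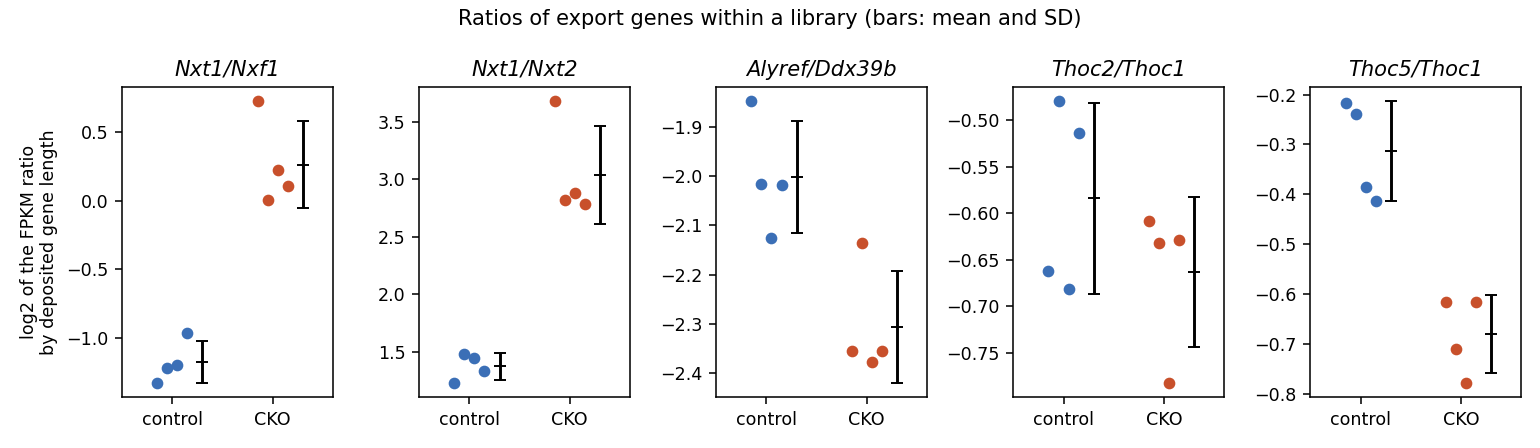
Log2 ratios of FPKM between pairs of export genes in each library, for 4 control (blue) and 4 Mettl3-CKO (red) samples, with bars for mean and SD. The ratios of Nxt1 to Nxf1 and to Nxt2 are higher in all Mettl3-CKO libraries, those of Alyref to Ddx39b and Thoc5 to Thoc1 are lower, and that of Thoc2 to Thoc1 overlaps between groups.

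*Ddx39b*, the RNA helicase that loads the adaptor onto mRNA, lies on chromosome 17 from 35241746 to 35253707 and was the most abundant member per length. It measured 542, 519, 546 and 502 CPM in the *Mettl3*-CKO libraries and 400.3, 451, 443 and 407 CPM in the control libraries. The lowest *Mettl3*-CKO sample was above the highest control. The log2 fold change was 0.31 (SE 0.08, adjusted p = 0.0272, edgeR's quasi-likelihood test), a rise of 1.24-fold with a 95% interval of 1.10 to 1.40. The call was lost without *Mettl3*-CKO replicate 1 (adjusted p = 0.0813), *Mettl3*-CKO replicate 3 (adjusted p = 0.0728) or control replicate 4 (adjusted p = 0.0745), with log2 fold changes between 0.29 and 0.30 in these fits. Groups that do not overlap, as for *Nxt1* and *Ddx39b*, were found for 17.4% of all tested genes. The gene also holds 4 annotated small RNA genes on its own strand, each with at most 21 counts.

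*Alyref*, the adaptor that DDX39B loads, measured 107, 119.8, 107 and 99.6 CPM in the *Mettl3*-CKO libraries and 113, 113, 103 and 102 CPM in the control libraries. The *Mettl3*-CKO range enclosed the control range. The log2 fold change was 0.01 (SE 0.09, adjusted p = 0.969, edgeR's quasi-likelihood test), with a 95% interval from -0.18 to 0.19. The FPKM ratio of *Alyref* to *Ddx39b* in the same library had a mean of 0.25 in controls and 0.203 in *Mettl3*-CKO retinas. The log2 difference of this ratio was -0.30 (two-sided exact permutation p = 0.0286, adjusted p = 0.0357). Since *Alyref* changed little and the groups of *Ddx39b* did not overlap, the ratio follows the *Ddx39b* difference. It is not separate support for that difference and does not show a fall of *Alyref*. Of the 8 fits that left out 1 sample, 2 kept the exact p under 0.05, and it reached 0.0571 in the others.

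The THO subunits did not pass the test. *Thoc1* was at 94.9 to 107 CPM in *Mettl3*-CKO and 86.3 to 112 CPM in control samples, a log2 fold change of 0.08 (adjusted p = 0.650, edgeR's quasi-likelihood test). *Thoc2*, which encodes the scaffold of THO, was at 199.5 to 226 CPM and 187 to 234 CPM, a log2 fold change of 0.01 (adjusted p = 0.966, edgeR's quasi-likelihood test). For both genes the control range enclosed the other group. *Thoc1* overlaps *Usp14* on the opposite strand by 53 bases, and whether counting used strand is not given in the sources used here.

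*Thoc5*, a THO subunit that contacts the receptor, had the lowest log2 fold change of the members. It measured 48.0, 43.1, 45.2 and 51.6 CPM in the *Mettl3*-CKO libraries and 71.9, 54.2, 52.0 and 51.2 CPM in the control libraries. *Mettl3*-CKO replicate 4 lay just above the lowest control, and control replicate 1 stood far above the rest. The log2 fold change was -0.29 (SE 0.12, unadjusted p = 0.0282, adjusted p = 0.144, edgeR's quasi-likelihood test). Without control replicate 1 it was -0.16 (adjusted p = 0.220, edgeR's quasi-likelihood test). Control replicate 1 also had the highest summed rod markers, 3695 CPM, and the part of that in its *Thoc5* level was not tested. The gene overlaps a processed pseudogene on the same strand over 494 bases, with 14 to 37 counts.

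Within the THO complex, the *Thoc5* to *Thoc1* ratio measured 0.653, 0.612, 0.583 and 0.652 in the *Mettl3*-CKO libraries and 0.860, 0.847, 0.766 and 0.751 in the control libraries. The groups did not overlap, with a log2 difference of -0.37 (two-sided exact permutation p = 0.0286, adjusted p = 0.0357). In all 8 fits that left out 1 sample the exact permutation p was again 0.0286, the smallest that these fits allow. Groups that do not overlap stay apart whichever sample is left out, so these fits are not separate support for the difference. The *Thoc2* to *Thoc1* ratio differed by -0.08 on the log2 scale (exact permutation p = 0.286).

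*Xpo1*, the exportin, measured 339, 336, 335 and 328 CPM in the *Mettl3*-CKO libraries and 328, 282, 264 and 334 CPM in the control libraries. The *Mettl3*-CKO samples were nearly equal, with a coefficient of variation of 1.34% against 11.4% in controls. Control replicate 4 lay within their range, control replicate 1 just below it and the other controls lower. The log2 fold change was 0.15 (SE 0.09, adjusted p = 0.346, edgeR's quasi-likelihood test). With control replicates 1 and 4 both left out it was 0.29 (adjusted p = 0.0450, edgeR's quasi-likelihood test), while that of *Ddx39b* was then 0.24 (adjusted p = 0.0975, edgeR's quasi-likelihood test).

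**Figure D3:**
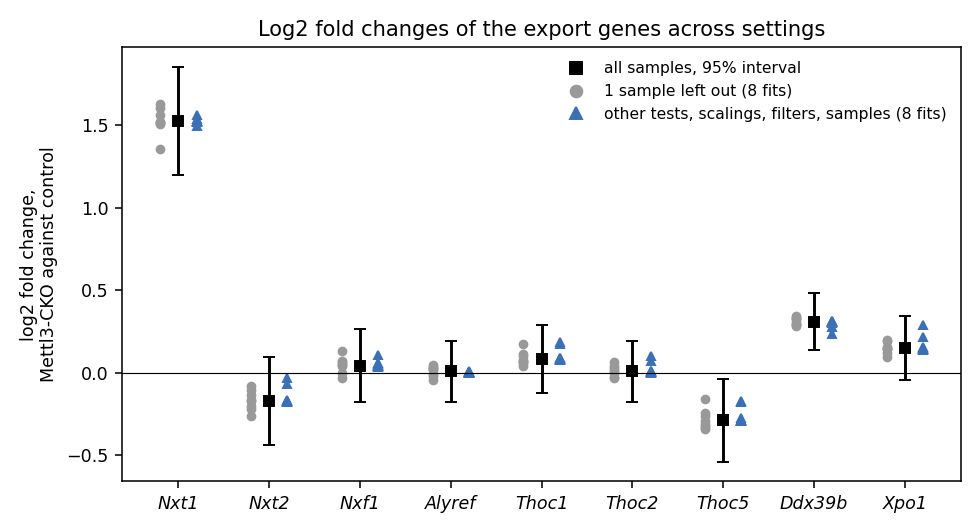
Log2 fold changes of the 9 export genes, Mettl3-CKO against control, with the 95% interval of the fit on all samples (black squares), the 8 fits that left out 1 sample (grey circles) and 8 other settings (blue triangles). Nxt1 stays between 1.36 and 1.63 in all of these fits, and Ddx39b between 0.24 and 0.34.

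By the deposited gene lengths, the order of the members in controls was *Ddx39b* (112 ± 6.69 FPKM, SD, n = 4), *Nxf1* (47.0 ± 6.34 FPKM), *Xpo1* (42.1 ± 4.79 FPKM), *Alyref* (28.1 ± 1.57 FPKM), *Thoc1* (24.8 ± 3.01 FPKM), *Nxt1* (20.6 ± 0.902 FPKM), *Thoc5* (20.04 ± 3.41 FPKM), *Thoc2* (16.5 ± 1.52 FPKM) and *Nxt2* (7.996 ± 1.01 FPKM). The ranges of *Nxf1* and *Xpo1*, of *Alyref* and *Thoc1*, of *Nxt1* and *Thoc5*, and of *Thoc5* and *Thoc2* overlapped. In *Mettl3*-CKO retinas *Nxt1* stood at rank 2 of the 9, at 59.4 ± 15.2 FPKM, from rank 6 in controls. With transcript lengths, an alternative chosen after the data had been seen, *Nxf1* was at 121 ± 16.3 CPM per kilobase in controls, and *Thoc2*, *Thoc5* and *Thoc1* were at 27.4, 25.7 and 23.1 CPM per kilobase, above *Nxt1* at 20.6. *Nxt1* then moved from rank 8 in controls to rank 3 in *Mettl3*-CKO retinas, below *Nxf1* at 124 CPM per kilobase. The control ranges of *Ddx39b* and *Nxf1* overlapped on this scale, as did those of neighbours from *Alyref* to *Nxt1*. The order thus holds for *Ddx39b*, *Nxf1*, *Xpo1*, *Alyref* and *Nxt2* with both lengths and not for the other 4.

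**Figure D4:**
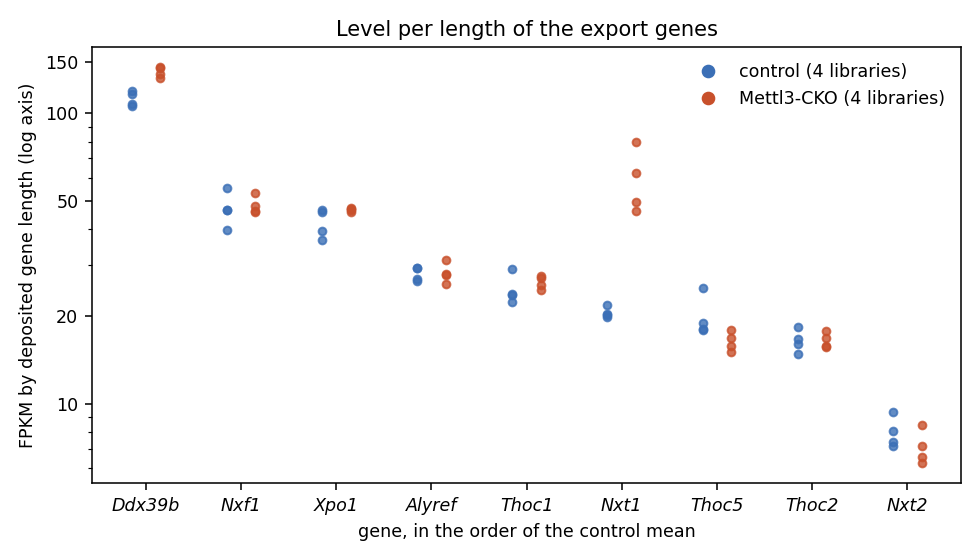
FPKM of the export genes by deposited gene length on a log axis, in the order of the control mean, for each of 4 control (blue) and 4 Mettl3-CKO (red) libraries. Nxt1 moves from 20.6 FPKM in controls to 59.4 FPKM in Mettl3-CKO retinas, above Nxf1 at 48.4 FPKM on this scale but below it with transcript lengths (59.4 against 124 CPM per kilobase).

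Around the members, 60 other genes of the pathway were listed, 57 of them tested. In these, 6 were called higher and 0 lower by edgeR, against 6.49% of all tested genes called higher and 4.05% called lower. At an unadjusted p under 0.05, 12 were higher and 3 lower. The share of all tested genes at that unadjusted threshold is not given here, so such counts have nothing to be set against. The median log2 fold change was 0.03. DESeq2 called 9 higher and 0 lower, and limma voom 9 higher and 1 lower. Over all genes DESeq2 called 1476 higher and 1019 lower, and limma voom 2142 higher and 1568 lower. *Alyref2*, a close relative of *Alyref*, went from 1.81 ± 0.469 to 4.71 ± 0.595 CPM (SD, n = 4 each, log2 fold change 1.38, adjusted p = 0.00240, edgeR's quasi-likelihood test), and *Phax*, the adaptor for export of snRNAs, from 50.8 ± 8.66 to 85.8 ± 13.3 CPM (log2 fold change 0.76, adjusted p = 0.00483, edgeR's quasi-likelihood test). *Nup62*, a channel nucleoporin, went from 65.9 ± 4.20 to 105 ± 18.8 CPM (log2 fold change 0.68, adjusted p = 0.00418, edgeR's quasi-likelihood test). These 3 genes were called in all 8 fits that left out 1 sample.

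*Ranbp2*, the large nucleoporin of the cytoplasmic filaments, had a log2 fold change of 0.44 (adjusted p = 0.0197, edgeR's quasi-likelihood test), *Nup42*, listed as *Nupl2*, had 0.40 (adjusted p = 0.0310), and *Ranbp1*, a RAN cofactor, had 0.30 (adjusted p = 0.0497). These were called in 4, 3 and 2 of the 8 fits that left out 1 sample. By group, 1 of 11 other THO and TREX genes, 3 of 13 pore docking and release factors, and 2 of 7 RAN cycle and exportin cofactors were higher. Over all tested genes the share called higher was 6.49%. None was called among 6 TREX-2 subunits, 10 cap binding and exon junction genes, 6 other exportins and 4 m6A-linked and SR adaptors by edgeR's quasi-likelihood test, where 3 genes were higher and 2 lower at an unadjusted p under 0.05, and the 3 other NXF receptors were too low to be tested. DESeq2 and limma voom also called *Ncbp2*, *Ran* and *Xpo6* higher. *Alyref* and *Alyref2* were 92.4% identical over their aligned coding bases, with identical runs of up to 57 bases, so a division of reads between them is uncertain, and *Phax* overlaps *Aldh7a1* on the opposite strand. *Nup62* overlaps *Il4i1* on the same strand over 14426 bases (3 to 11 counts) and *Atf5* on the opposite strand over 571 bases (240 to 332 counts). *Ranbp1* overlaps *Trmt2a* on the opposite strand over 54 bases and AC084822.2, with 0 counts, on its own strand over 3518 bases.

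Exon structure, which the selection of genes did not use, was read for the export genes. This measure was chosen after the fold changes had been seen and is given without a test. *Nxt1* has 3 exons, and its whole coding sequence of 423 bases, from 148675341 to 148675763 on chromosome 2, lies in the third. Of the 66 export genes tested, 3 have their coding sequence in 1 exon, *Nxt1*, *Alyref2* and *Nup62*, and all 3 were called higher. Of all 969 tested protein-coding genes with the coding sequence in 1 exon, 19.7% were called higher. In the 8 export genes called higher, the longest coding exon held a median of 50.8% of the coding sequence, against 16.0% in the 58 not called. Over all tested protein-coding genes the medians were 53.0% in those called higher and 25.3% in those not called, so the split is not particular to export genes. The 8 export genes called higher ranged widely. *Ddx39b*, with 10 coding exons and 16.4% in the longest, lay below the median of 26.3% over all tested protein-coding genes. So did *Ranbp1*, with 6 coding exons and 25.8%. *Nxt2* has 5 coding exons and *Nxf1* has 21.

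**Figure D5:**
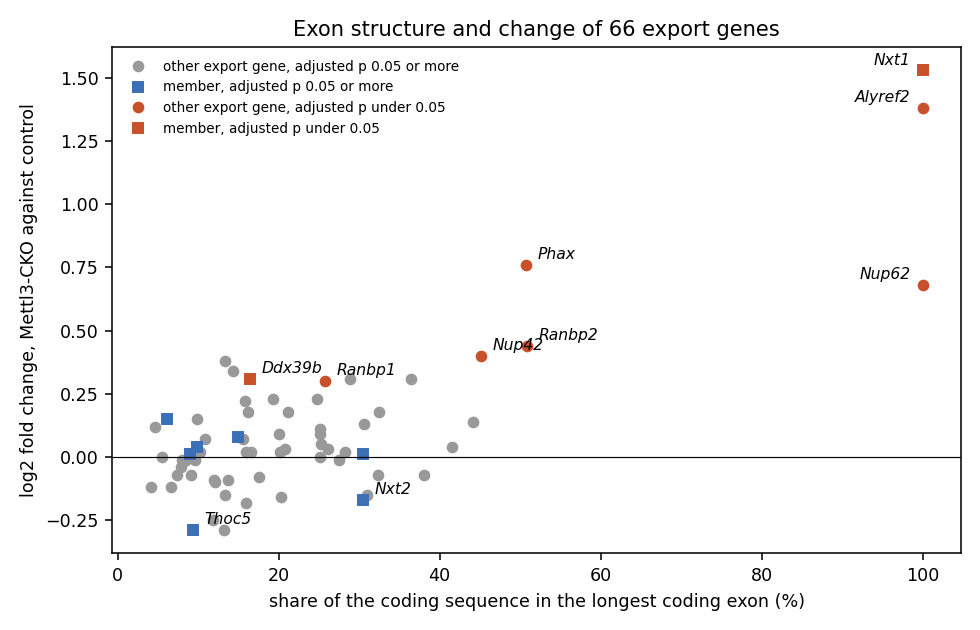
Share of the coding sequence in the longest coding exon (%) against log2 fold change, Mettl3-CKO against control, for 66 export genes (squares for the 9 members, circles for the rest, red for an adjusted p under 0.05). The 3 genes at 100%, Nxt1, Alyref2 and Nup62, have log2 fold changes of 1.53, 1.38 and 0.68, while most genes below 40% lie near 0.

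The number of GGACT matches was read on the transcript strand. *Nxt1* had 3 in its 1116-base transcript, all within 200 bases of the end of the stop codon, and 96.4% of 14269 tested protein-coding genes had fewer per kilobase. *Nxt2* had 1, outside the coding sequence, and *Thoc5*, which was not called, had 4. At least 3 matches within 200 bases of the stop were found in 1.84% of the tested protein-coding genes, and 6.49% of these were called higher, against 7.33% of all tested protein-coding genes. A match gives letters only, and m6A itself was not measured in these libraries.

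Genes whose profile over the 8 libraries was most like that of *Nxt1* were sought among 11372 genes with a mean log2 CPM of at least 3, by the root mean square difference of centred log2 CPM. Those named here are *Cdkn1a*, an inhibitor of cyclin-dependent kinases (difference 0.13), *Crybg3* (0.17), *Sdc1*, a heparan sulphate proteoglycan (0.20), and *Ercc6l*, a helicase of mitotic chromosomes (0.20). Their log2 fold changes lay between 1.27 and 1.68. The measure includes the difference between the groups, so values near that of *Nxt1* follow from how these genes were picked. The nearest member was *Ddx39b*, which had the next largest log2 fold change of the members, at rank 1229 with a difference of 0.63.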

How the data were processed

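Whole-gene RNA-seq counts of 4 Mettl3-CKO and 4 control retinal samples were used. Per the study's methods, low-quality reads were removed by the authors, with Hisat2 used for alignment to GRCm38 and featureCounts for counting. The deposited values are raw counts per gene, and the annotation release and strand setting are not given in the sources used here. The labels give the age as postnatal day 7 and the methods give a day earlier.

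Differences between groups were tested with edgeR 4.0.16 in R 4.3.3 (filterByExpr, TMM, glmQLFit and glmQLFTest, condition as the only term), with Benjamini-Hochberg adjustment over 17998 genes and a threshold of 0.05. DESeq2 1.42.0, limma 3.58.1 voom, other scalings and filters, a replicate block and leaving out samples were alternatives. The standard error is the absolute log2 fold change over the square root of F. CPM uses TMM-scaled totals of the genes tested, and FPKM was calculated from CPM and the deposited gene lengths (transcript lengths were added as an alternative after seeing the data). Ratios were compared with two-sided exact permutation tests. No 2 libraries were counted as 1, the most similar pair within a group having a chi-square of 5.01 per gene. At these depths 3 counts correspond to 0.148 to 0.185 CPM, which covers counting error only.

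All 9 members are named, with *Mettl3*, every other listed export gene past the threshold and the 5 genes most like *Nxt1*, of which 1 is not reported here. The members and gene lists were chosen with earlier results of these data known, and exon structure and GGACT counts were added after fold changes were seen. They come from the GENCODE vM21 transcript with the longest coding sequence. On 5 simulated data sets of 17998 genes, the test called 92% of 4-fold and 72.6% of 2-fold changes, and 4.3% of its calls were false. Each simulated set had 200 changed genes and the same spread in both groups, whereas 1897 genes were called in the data. These shares may therefore differ for the data.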

Additional observations from a re-analysis of the deposited data

Results flagged for a closer look

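In 28 groups of 4 values, the member levels and ratios were searched for a sample far from the others, and chance flags about 1 in 20 such groups. In 4 groups a sample stood apart. *Thoc5* was at a log2 CPM of 6.17 in control replicate 1, against 5.68 to 5.77 in the other controls. The log2 ratio of *Nxt1* to *Nxt2* was 3.68 in *Mettl3*-CKO replicate 1, against 2.79 to 2.88 in the others of its group. The log2 ratio of *Alyref* to *Ddx39b* was -2.14 in *Mettl3*-CKO replicate 2, against -2.38 to -2.36. The log2 ratio of *Thoc2* to *Thoc1* was -0.78 in *Mettl3*-CKO replicate 3, against -0.63 to -0.61. What sets these samples apart was not tested.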

How the results depend on the processing

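Of 144 values of the members' log2 fold changes over 16 alternatives, 139 kept their side of the threshold, 4 lost the call (*Ddx39b*), 1 gained it (*Xpo1*) and 0 called values reversed. The number of members called higher was 2 in all 8 other settings and 1 to 2 when 1 sample was left out, and 0 were lower throughout. Other export genes called higher ranged from 3 to 9 when 1 sample was left out, against 6 with all samples, with 3 without *Mettl3*-CKO replicate 1, control replicate 2 or control replicate 3. With limma voom, 1 other export gene was called lower, *Pcid2* of TREX-2 (log2 fold change -0.32, adjusted p = 0.0133), and the number called lower ranged from 0 to 1 when 1 sample was left out, *Pcid2* again without control replicate 1 (-0.30, adjusted p = 0.0253, edgeR's quasi-likelihood test). The log2 difference of the *Alyref* to *Ddx39b* ratio ranged from -0.36 to -0.25, and its exact permutation p rose to 0.0571 in 6 of the 8 fits that left out 1 sample. The groups of this ratio stood apart only narrowly, with 0.228 in *Mettl3*-CKO replicate 2 and 0.229 in control replicate 3. With transcript in place of gene lengths, the rank of *Nxt1* among the members moved from 6 to 8 in controls and from 2 to 3 in *Mettl3*-CKO retinas.

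Over all genes, 509 to 1882 were called higher and 185 to 1289 lower when 1 sample was left out, the lowest without *Mettl3*-CKO replicate 1 and the highest without control replicate 1, and limma voom called 2142 higher and 1568 lower. Both groups carry the replicate numbers 1 to 4, with correlations of -0.11, 0.22, -0.11 and 0.25 between same-numbered samples, and 2 of the 4 *Mettl3*-CKO samples (replicates 2 and 4) correlated best with the control of their own number, so the numbers were not taken to pair the samples. With the replicate block *Nxt1* had a log2 fold change of 1.5 (adjusted p = 0.00105, edgeR's quasi-likelihood test), *Ddx39b* had 0.31 (adjusted p = 0.0406), the members called higher were 2 and the other export genes called higher were 7. In the blocked comparison of ratios the smallest exact p possible is 0.125.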

Other observations

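The share of the coding sequence held by the longest coding exon was also tabulated for all 14269 tested protein-coding genes, after the values of the export genes had been seen and with no test. Genes called higher in *Mettl3*-CKO retinas made up 2.94% of the 5339 genes with a share under 20%, 4.95% of 4464 genes from 20% to 40%, 11.3% of 1908 genes from 40% to 60%, 14.8% of 938 genes from 60% to 80%, 18.7% of 651 genes from 80% to 100%, and 19.7% of 969 genes with the whole coding sequence in 1 exon. Genes called lower made up 5.56% of the lowest class and 3.30% of the highest. The median log2 fold change was -0.05 in the lowest class and 0.15 in the highest. *Nxt1* was among the top of the last class, in which 7 of 969 genes had a larger log2 fold change.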
